A study of Arabidopsis thaliana with 3 samples.

Results

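NAC proteins are a large family of plant transcription factors named after the first members described, NAM, ATAF and CUC. They bind DNA through a conserved domain near the amino terminus, and the rest of the protein activates, represses or, in some members, anchors the factor in a membrane until a stress signal releases it. Members control secondary wall formation, programmed cell death, leaf senescence, stress responses and, in flowers, anther opening and the lifespan of the stigma. NAC genes are here the rows of the authors' comparison table whose gene description names a NAC domain, without the organ boundary genes CUC1, CUC2 and CUC3. The rule gave 62 of the 19777 genes of the table, and it used no measured value.

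The RNA came from flower buds and inflorescence meristems of Arabidopsis thaliana grown in long days. It covers 3 independent lines with 1 library each, all sep1 sep2 sep3 triple mutants, which lack 3 floral organ identity genes, that express SEP3Δtet. The series title speaks of a splice variant of SEP3, and the labels do not state the promoter of the transgene. Buds reached stages 10 to 11 for line 1 by its label, while the labels of line 2 (10 to 12) and line 3 (10 to 13) include older buds. The comparison group is the triple mutant itself, so both groups carry the 3 mutations, and the question is which genes differ between them. The labels used here cover no triple mutant library, so its bud stages and batch are not known from them. A difference in stage or batch between the groups cannot be told apart from a response to the SEP3 variant.

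No value per library was used here: the authors' deposited table gives 1 log2 fold change per gene (positive when higher in the SEP3Δtet lines), an average abundance in log2 CPM (counts scaled to library size, not to gene length), an F statistic and a p-value adjusted by the Benjamini-Hochberg method. Depth and the spread among lines are therefore unknown, and p-values rest on the spread between libraries in the authors' fit. Genes with an adjusted p under 0.05 in the authors' edgeR fit are called higher or lower. In RNA of whole buds, fewer cells of a type and less RNA per cell cannot be told apart.

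Of the markers of the labelled tissue, 7 of 8 floral meristem and organ identity genes had a row in the authors' deposited table, at 2.69 to 7.81 log2 CPM, and CLV3 was not analysed here. Of these 7, WUS (log2 fold change 2.01), PI (0.77) and AP3 (0.33) were higher and AP1 (-1.003) and LFY (-0.73) lower per the authors' deposited table. All 12 tapetum markers (the anther layer that feeds pollen) were higher there, with a median log2 fold change of 3.57, all 5 green tissue markers were lower, with a median of -0.74, and none of 3 phloem markers was called. Of 7 markers of maturing pollen, 3 had a row in the authors' deposited table and 1, ACT12, was higher (log2 fold change 9.31, 1.33 log2 CPM). The others, VGD1 (7.48, adjusted p = 0.096 by edgeR, -0.66 log2 CPM) and ACT3 (-0.01), were not called there. The part of these tissue differences in the NAC results below was not tested.

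A pair of sequence sets carries results described below, both read from the RefSeq TAIR10.1 genome. The first is the mature miRNA miR164a, which guides cleavage of several NAC transcripts, with the matching sites in the coding sequences of the NAC genes ORE1 and ANAC100. The seed of the miRNA (bases 2 to 8) is in capitals, and in the sites capitals mark mismatches to full complementarity.
miR164a: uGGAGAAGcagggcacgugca
ORE1: CUcacgugAccugcuucuccG
ANAC100: uCUacgugcccugcuucucca
These sites lie on the minus strand at chr5:15858797-15858817 for ORE1, with 4 mismatches, and at chr5:24701687-24701707 for ANAC100, with 2 mismatches. Among the 62 coding sequences, only these 2 held a site with at most 4 mismatches, and the next best match had 7.

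The second set shows how alike 4 neighbouring NAC genes of chromosome 1 are, which bears on how reads are assigned to them. It is a coding stretch of 60 bases aligned over the 4 genes, of which 47 positions are the same in all, and capitals mark the positions that differ.
AT1G60240: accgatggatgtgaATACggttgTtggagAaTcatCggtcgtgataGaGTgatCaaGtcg
AT1G60300: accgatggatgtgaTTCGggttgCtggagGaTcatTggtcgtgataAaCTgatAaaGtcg
AT1G60340: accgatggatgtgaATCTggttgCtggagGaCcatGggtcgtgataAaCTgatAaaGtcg
ANAC024: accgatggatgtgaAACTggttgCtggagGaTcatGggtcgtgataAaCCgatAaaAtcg
These stretches are on the minus strand, at chr1:22215671-22215730, chr1:22230461-22230520, chr1:22240112-22240171 and chr1:22241951-22242010 in the order shown.

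Of the 62 NAC genes, 19 rose, 1 fell and 42 did not pass the threshold per the authors' deposited table. The 32.3% called compares with 17.5% of all genes tested, and the 30.6% higher with 11.6% of all genes. The 1.61% lower compares with 5.88% of all genes. The NAC genes called higher had a median log2 fold change of 3.29, against 1.88 for all genes called higher per the authors' deposited table. This comparison was not matched for abundance. Of the 19, 10 rose at least 8-fold, and the matching share of all genes called higher was not counted. The 1 gene that fell, ANAC041, changed 1.58-fold (log2 fold change -0.66, adjusted p = 0.0107 by edgeR per the authors' deposited table). Over all 62 NAC genes the median log2 fold change was 0.39, against -0.00094 for all genes.

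Most increases were in NAC genes of low average abundance. NAC genes had a median abundance of 1.87 log2 CPM, against 4.46 for all genes of the authors' deposited table. Below 1 log2 CPM, 8 of 20 NAC genes were higher, which is 40% against 26.7% of all genes in that range. From 1 to 2 log2 CPM the count was 6 of 14 (42.9% against 23.2%), and from 2 to 4 log2 CPM 4 of 16 (25% against 14%). Of the 12 NAC genes at 4 log2 CPM or more, 1 was higher, or 8.33% against 6.55% of all genes. The share of all genes called higher was smaller at each higher range, while that of NAC genes was smaller only from 2 log2 CPM on, and the difference between NAC genes and other genes was not tested.

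**Figure D1:**
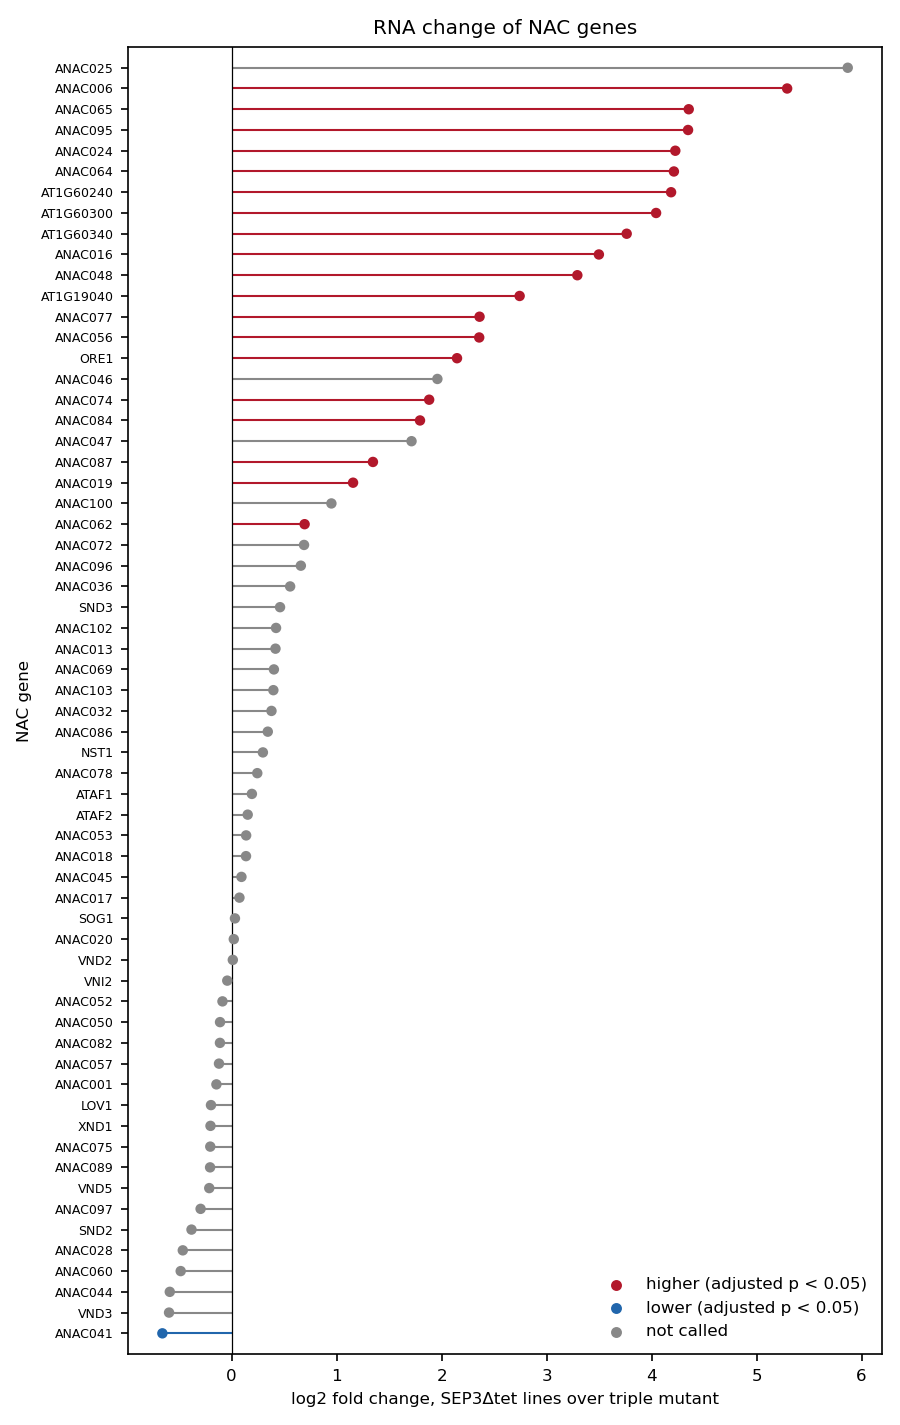
Each row is 1 of the 62 NAC genes, ordered by log2 fold change per the authors' deposited table (horizontal axis, SEP3Δtet lines over the triple mutant), with colour for the call at an adjusted p of 0.05; no error bars are drawn because the table gives no value per library. The 19 higher genes run from 0.70 to 5.29, ANAC025 lies above them without a call, and ANAC041 at the bottom is the 1 lower gene.

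**Figure D2:**
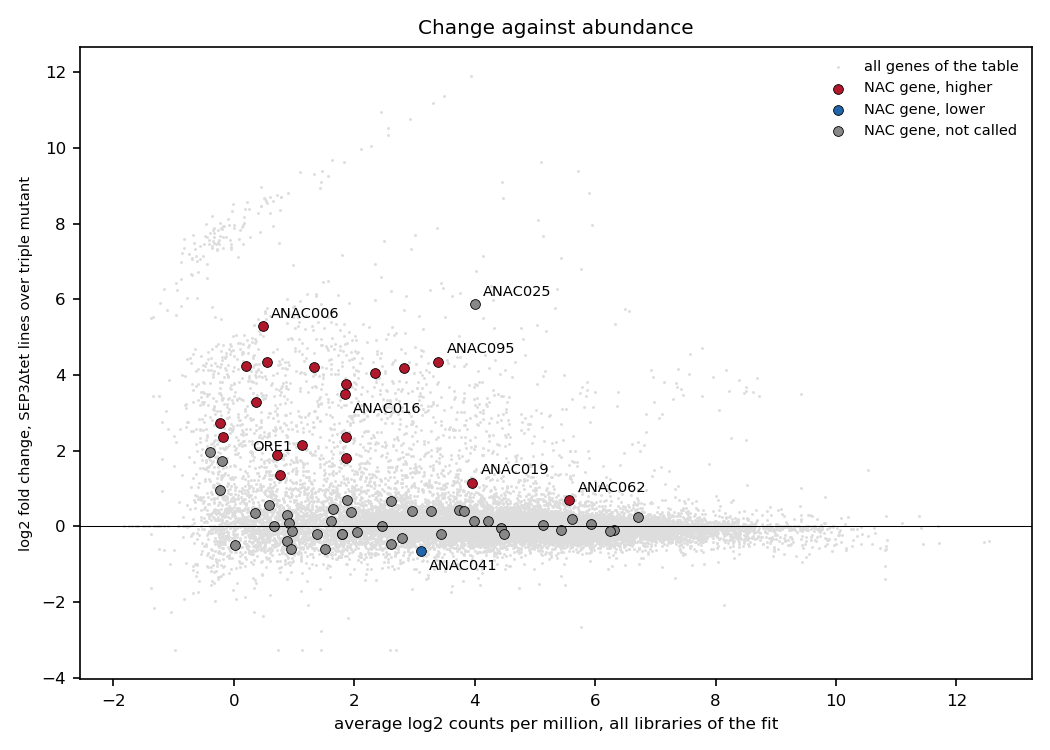
Log2 fold change (vertical axis) against average log2 CPM (horizontal axis) per the authors' deposited table, with all 19777 genes in grey and the 62 NAC genes coloured by call. Of the 19 NAC genes called higher, 18 lie below 4 log2 CPM and ANAC062 above it, and ANAC025, which was not called, has the largest value of the NAC genes, 5.87 at 4.01 log2 CPM.

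Several of the largest increases were in genes that lie next to each other. On chromosome 1, AT1G60240, AT1G60300, AT1G60340 and ANAC024 (AT1G60350) lie within 27068 bp, and all 4 rose. Their log2 fold changes per the authors' deposited table were 4.19 (adjusted p = 1.4e-06 by edgeR), 4.04 (adjusted p = 8.5e-06), 3.76 (adjusted p = 6.3e-06) and 4.23 (adjusted p = 5.8e-04). ANAC024 averaged only 0.20 log2 CPM there. The files give these genes no role. Between them, the beta-glucosidase genes BGLU5 (log2 fold change -0.15, adjusted p = 0.427) and BGLU6 (-0.21, adjusted p = 0.759) were not called per the authors' deposited table. BBX26, a B-box gene next to AT1G60240, rose by 7.32 at an average of -0.28 log2 CPM (adjusted p = 0.0019 per the authors' deposited table). NAC023, another NAC locus in this stretch, was not analysed here.

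The coding sequences of AT1G60300, AT1G60340 and ANAC024 are 83.8% to 89.0% identical in pairs, and those of AT1G60240 and the other genes 63.3% to 64.5%, as the stretches printed above show for the best conserved part. The longest run of identical bases was 85 between AT1G60340 and ANAC024 and 77 between AT1G60300 and each of them. Reads were 150 bases long at each end, so no pair of the 62 NAC genes has an identical coding run as long as 1 read. How reads that match several genes were counted is not stated in the labels, so the separate values of these 3 genes are uncertain. AT1G60240 shared no run over 17 bases with the other genes of the group and had the smallest adjusted p of the 4.

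**Figure D3:**
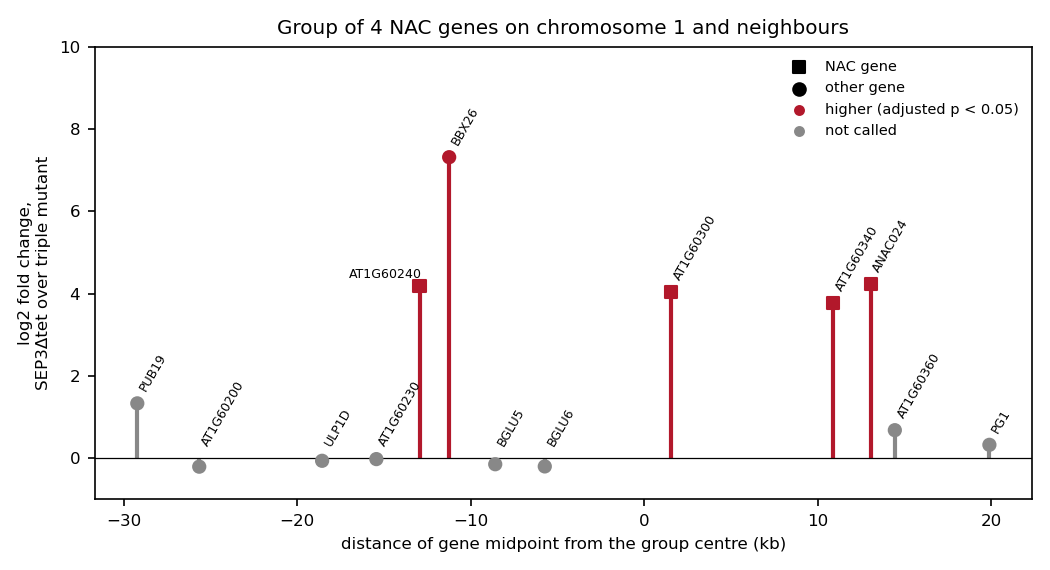
Log2 fold change per the authors' deposited table (vertical axis) of the genes around the group of 4 NAC genes on chromosome 1, by distance of the gene's midpoint from the centre of the group in kb; squares are NAC genes, circles other genes, and red marks an adjusted p under 0.05. The 4 NAC genes stand between 3.76 and 4.23 and BBX26 at 7.32, while the other genes with a value lie between -0.21 and 1.33.

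A pair, ANAC064 and ANAC065 on chromosome 3, rose too, with 5358 bp between the genes. ANAC064 rose by 4.21 (adjusted p = 1.6e-05 by edgeR) and ANAC065 by 4.35 (adjusted p = 7.0e-04, 0.55 log2 CPM) on the log2 scale per the authors' deposited table. In 4 other neighbouring pairs 1 gene rose and the other was not called. ANAC016 rose 11.3-fold (log2 fold change 3.50, adjusted p = 1.2e-05) and ANAC017, with 117 bp between the genes, stood at 0.07 (adjusted p = 0.661) per the authors' deposited table. ANAC077 (2.36, adjusted p = 0.0105, -0.19 log2 CPM) and ANAC078 (0.24, adjusted p = 0.148), with 325 bp between them, showed the same split per the authors' deposited table. The remaining pairs were ANAC019 (log2 fold change 1.16) with ANAC018 (0.14) and ANAC074 (1.88) with SND2 (-0.38), per the authors' deposited table. The differences within these pairs were not tested. On chromosome 3, ANAC050, ANAC052 and ANAC053 lie next to each other, and none was called (log2 fold changes of -0.11, -0.09 and 0.14 per the authors' deposited table). ANAC046 and ANAC047, with 6103 bp between them, were not called either. They stood at 1.96 (adjusted p = 0.068 by edgeR) and 1.71 (adjusted p = 0.173) per the authors' deposited table.

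Among the genes outside these neighbouring groups, ANAC095 had the smallest adjusted p of all NAC genes (2.8e-07 by edgeR, with F = 394 and a log2 fold change of 4.35, per the authors' deposited table). It lies on chromosome 5 from 16445655 to 16446673 and encodes 212 residues in 2 coding exons. ANAC006 showed the largest increase that was called, 5.29 (adjusted p = 1.5e-04 per the authors' deposited table), at 0.49 log2 CPM. ANAC048 (3.29, 0.38 log2 CPM), AT1G19040 (2.74, -0.23 log2 CPM) and ANAC084 (1.79, 1.86 log2 CPM) rose too per the authors' deposited table. AT1G19040 had an adjusted p of 0.0149 by edgeR and lost its call at 0.01. In the role groups used below, 42 NAC genes have a place and 6 of these rose, or 14.3%, which is near the 11.6% of all genes called higher. Of the 20 without a place, 13 rose, or 65%. The groups were compiled from genes with a studied function, with earlier results of these data known, so the 2 shares are not independent of the calls. They leave out ANAC074, whose function is given below. The 13 include the 4 neighbouring genes of chromosome 1, and the difference was not tested.

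ANAC025, a gene known for its expression in the tapetum, had the largest log2 fold change of all 62 NAC genes, 5.87, and did not pass the threshold (adjusted p = 0.0513 by edgeR per the authors' deposited table). It averaged 4.01 log2 CPM per the authors' deposited table. The 12 tapetum markers, all called higher, had log2 fold changes from 2.32 to 4.13 there, and their part in the value of ANAC025 was not tested. The log2 fold change divided by the square root of F, which approximates its standard error, was 1.60 for ANAC025 and between 0.08 and 0.79 for the other 61 NAC genes. The denominator degrees of freedom recovered from F and p were 6.50 for ANAC025, the lowest of the NAC genes, against 11.85 (within 0.02) for 53 of the 62. Whether 1 of the lines, which are labelled with different oldest stages, set this spread is unknown from the values used here. Of the related seed coat genes, ANAC056 (NARS1), which acts in the integuments during embryo development, rose by 2.36 (adjusted p = 0.0158) and its partner ANAC018 (NARS2) was not called (0.14, adjusted p = 0.731) per the authors' deposited table.

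Of 10 NAC genes in the senescence and stress group, 3 rose and 7 did not pass the test, while 11.6% of all genes were higher. The group's median log2 fold change was 0.92 per the authors' deposited table. ORE1 (ANAC092), which promotes leaf senescence and, with ANAC074, ends the life of stigma papilla cells, rose 4.43-fold (log2 fold change 2.15, adjusted p = 8.1e-04 by edgeR per the authors' deposited table). ANAC074 (KIRA1), which is outside that group, rose 3.68-fold (1.88, adjusted p = 0.0012 per the authors' deposited table). ANAC087, which acts in death of root cap cells, rose by 1.35 (adjusted p = 0.0192), and its partner there, ANAC046, stood at 1.96 without a call (adjusted p = 0.068, -0.39 log2 CPM) per the authors' deposited table. ANAC019, which acts in abscisic acid and jasmonate responses, rose by 1.16 (adjusted p = 0.0069 per the authors' deposited table). Its relative ANAC072 was not called (0.69, adjusted p = 0.134 per the authors' deposited table). The stress genes ATAF1 (0.19) and ATAF2 (0.15), which averaged 5.61 and 4.22 log2 CPM, were not called either per the authors' deposited table.

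The senescence list holds regulators as well as downstream genes. Of its 13 genes with a row, the test was passed by 2 that rose and 0 that fell, or 15.4% against 17.5% of all genes. The list's median log2 fold change was -0.11 per the authors' deposited table. Those that rose were SWEET15 (SAG29), a sugar transporter gene (2.97, adjusted p = 3.1e-05), and WRKY53, a senescence regulator (1.03, adjusted p = 0.047) per the authors' deposited table. BFN1, a nuclease gene and direct target of ORE1, stood at -0.35 (adjusted p = 0.375), and the ribonuclease gene RNS3 at -0.11 (adjusted p = 0.843) per the authors' deposited table. Of the genes with a miR164a site printed above, ORE1 rose, and ANAC100 stood at 0.95 without a call (adjusted p = 0.215, -0.23 log2 CPM per the authors' deposited table).

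Of the 62 NAC genes, 9 are in the secondary wall and vessel group. With the group's genes outside the rule, 13 had a row. None of the 13 was called by edgeR, and 1, VND3, had an unadjusted p under 0.05. Their log2 fold changes ran from -0.60 for VND3 (adjusted p = 0.070) to 0.46 for the fibre wall regulator SND3 (adjusted p = 0.364) per the authors' deposited table. NST1, which with NST2 builds the wall thickening that opens the anther, stood at 0.30 (adjusted p = 0.569, 0.89 log2 CPM) per the authors' deposited table; NST2 was not analysed here. MYB26, which acts upstream of NST1 and NST2 in the anther endothecium, rose by 4.51 (adjusted p = 1.8e-05 per the authors' deposited table). The difference between MYB26 and NST1 was not tested. Of 26 secondary wall regulators and enzymes, 3 rose, 0 fell and 23 were not called, with a median of -0.15 per the authors' deposited table. The share called was 11.5%, against 17.5% of all genes. Besides MYB26, the genes that rose were MYB52 (2.85) and MYB54 (1.83). The wall cellulose synthase genes CESA4 (-0.21), CESA7 (-0.25) and CESA8 (-0.08) were not called per the authors' deposited table. In the anther dehiscence list, 2 of 8 genes had a row, and both rose, while 17.5% of all genes were called. The other genes had no row, and the filter that decides this is not stated, so these 2 do not stand for the list. The 2 genes were MYB26 and the polygalacturonase gene QRT2 (3.67, adjusted p = 7.9e-05 by edgeR per the authors' deposited table).

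Of 10 NAC genes in the membrane-anchored group, 2 rose and 8 were not called, while 11.6% of all genes were higher. The median log2 fold change of these 10 was 0.29 per the authors' deposited table. With the group's genes outside the rule, 15 had a row and 3 rose, NTM1 among them. ANAC016, which promotes leaf senescence and lowers drought tolerance, rose as given above. ANAC062 (NTL6), released from membranes by cold and by endoplasmic reticulum stress, rose 1.62-fold (0.70, adjusted p = 0.0177 by edgeR per the authors' deposited table) and was the 1 higher NAC gene with an average of 4 log2 CPM or more. ANAC013, which like ANAC017 relays signals of mitochondrial dysfunction, stood at 0.42, just outside the threshold (adjusted p = 0.055 per the authors' deposited table). ANAC078 (0.24), ANAC053 (0.14) and ANAC089 (-0.21) were not called per the authors' deposited table.

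Genes that respond to mitochondrial dysfunction include targets of ANAC013 and ANAC017. Among 8 with a row, 5 rose, 1 fell and 2 did not pass, with a median log2 fold change of 1.51 per the authors' deposited table. The 6 called, 5 higher and 1 lower, are 75% of the list, against 17.5% of all genes. Like the other lists here, the list was chosen with earlier results of these data known, and the difference was not tested. AT12CYS2 (3.57, adjusted p = 1.5e-05), the small heat shock gene HSP23.5 (2.59), the dehydrogenase gene NDB4 (2.49, adjusted p = 5.3e-04) and UPOX (2.35, adjusted p = 1.5e-06) rose per the authors' deposited table. AOX1A, the alternative oxidase used as marker of this response, rose by 0.68 (adjusted p = 0.0031), and the glycosyltransferase gene UGT74E2 fell by 1.14 on the log2 scale (adjusted p = 0.0185) per the authors' deposited table. Of 7 endoplasmic reticulum stress genes, 3 rose, 0 fell and 4 were not called per the authors' deposited table. The share called was 42.9%, against 17.5% of all genes. The genes that rose were the chaperone genes BIP3 (18.4-fold, at 0.31 log2 CPM), BIP1 (1.34-fold) and BIP2 (1.34-fold). BZIP60, which acts upstream of ANAC103, had a log2 fold change of 0.08 and ANAC103 of 0.40 (adjusted p = 0.168 by edgeR) per the authors' deposited table. BIP1 and BIP2 are near-identical copies and their separate values are uncertain.

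**Figure D4:**
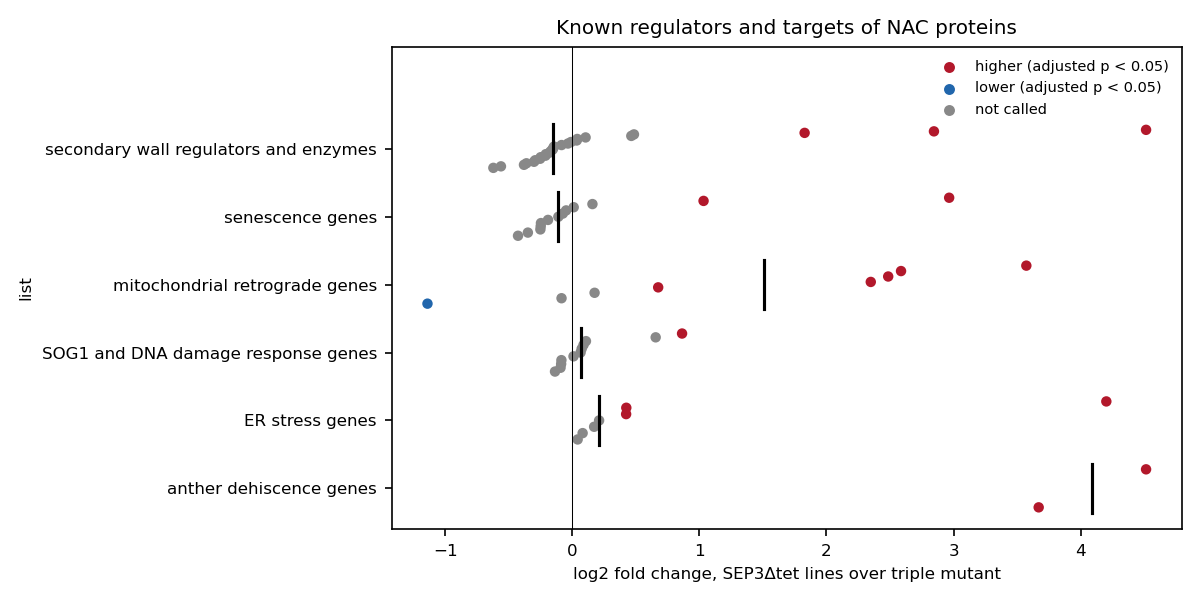
Log2 fold changes per the authors' deposited table (horizontal axis) of the measured genes of 6 lists of known regulators and targets of NAC proteins, 1 point per gene with colour for the call at an adjusted p of 0.05, and a black bar at each list's median. The mitochondrial list has its median at 1.51, and the secondary wall and senescence lists have theirs at -0.15 and -0.11.

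The remaining groups of NAC genes held no call. SOG1, the master regulator of the plant DNA damage response, stood at 0.03 (adjusted p = 0.896, 5.13 log2 CPM), and its target gene ANAC044 at -0.59 (adjusted p = 0.256) per the authors' deposited table. Of 11 DNA damage response genes, 1 rose, GMI1 (0.86, adjusted p = 4.3e-04 by edgeR), and 10 were not called per the authors' deposited table. The share called was 9.09%, against 17.5% of all genes. The 5 phloem NAC genes had log2 fold changes from -0.47 for ANAC028 to 0.34 for ANAC086, and 1, ANAC028, had an unadjusted p under 0.05 per the authors' deposited table. The flowering time genes LOV1 (-0.20), ANAC050 (-0.11) and ANAC052 (-0.09) were not called either, at 3.43 to 6.31 log2 CPM per the authors' deposited table. The 4 genes of the root cap group, SMB, BRN1, BRN2 and FEZ, were not analysed here.

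Of the 42 NAC genes not called, 34 lay within 1.5-fold of the triple mutant per the authors' deposited table, and 25 of the 42 had a positive sign. Just inside the threshold were ANAC087 (adjusted p = 0.0192), ANAC062 (0.0177) and ANAC056 (0.0158), and just outside were ANAC025 (0.0513), ANAC013 (0.055) and ANAC046 (0.068) per the authors' deposited table.

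In the 250 bases before the annotated gene start, on both strands, 0 of the 62 NAC genes held a perfect CArG box, the motif bound by MADS proteins such as SEP3, against 2.52% of 27443 protein-coding genes. The letters CATGTG, the core bound by ANAC019 and its relatives, stood in 3 of the 19 NAC genes called higher (15.8%), in 4 of the 42 not called (9.52%) and in 11.1% of all genes. A CArG box and CATGTG cannot share bases. For the 8 NAC genes with no annotated leader, the window lies before the start codon. A match or its lack is a description of these letters in this window.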

How the data were processed

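The submitters' processing notes name STAR, featureCounts, edgeR and the build TAIR10. No label gives their versions, a strand setting, a low-count filter, the number of control libraries or the model. The authors deposited 1 comparison table. Per the file headers its columns are the log2 fold change, the mean log2 CPM, F (treated as a score), the p-value and its adjusted form. Adjusting the deposited p-values anew by Benjamini-Hochberg returned the same values over all 19777 rows (largest difference 1.8e-15). No fit was made here, since no counts were used, and depth per library is unknown. The series text calls the lines independent. The direction of the fold change is read from the order of the genotypes in the name of the comparison.

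NAC genes were found by their description, and 9 role groups, 6 lists of regulators and targets and 5 marker lists were counted by call; all were chosen with earlier results of these data known. Genes named are those called, members of the role groups, the genes nearest to the threshold, and called genes or known regulators of each list. BBX26, BGLU5 and BGLU6 were named after their values were seen, as neighbours. Denominator degrees of freedom were solved from F and p, taking F as an F statistic with 1 numerator degree of freedom. The approximate standard error of the log2 fold change rests on the same assumption. Gene positions and sequences are from RefSeq TAIR10.1, where all 62 NAC genes matched by locus; the longest coding sequence of each gene was used and the group of 4 genes was aligned with MAFFT. Counting code was tested on simulated data (Python 3.11.15, pandas 2.3.3, scipy 1.17.1). Alternatives were an adjusted p of 0.01, Bonferroni adjustment, a minimum fold change, a minimum abundance, recentring, adding the CUC genes and counting neighbouring genes once.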

Additional observations from a re-analysis of the deposited data

How the results depend on the processing

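The 19 higher NAC genes became 14 at an adjusted p of 0.01, 18 at a 2-fold minimum, 20 with the CUC genes, 19 after recentring (a shift of -0.04) and 15 with neighbouring genes counted once, a setting chosen after seeing the data. They became 6 by Bonferroni and 11 among genes of at least 1 log2 CPM, since 8 of the 19 lie below it. The 1 lower gene became 0 at an adjusted p of 0.01, by Bonferroni and at the 2-fold minimum, and 2 with the CUC genes. Of the lists, the 2 higher senescence genes became 1 at an adjusted p of 0.01 and 1 at 1 log2 CPM or more, the 1 lower mitochondrial gene 0 and the 3 higher endoplasmic reticulum stress genes 0 at 0.01. Of single NAC genes, 6 lost their call at 0.01 and 1 that was not called, VNI2, changed sign on recentring, from -0.04 to 0.00044. No paired analysis was possible because no values per library were used; leaving out a line was not possible for the same reason, so whether all 3 lines carry a change is unknown. Genes of few reads have fitted folds that depend on the prior count.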

Other observations

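The description rule leaves out some NAC genes named otherwise. Of 40 further NAC loci by RefSeq names and role groups, 10 had a value and 1 of these rose, while 11.6% of all genes were higher. It was NTM1, which encodes a membrane-anchored factor acting on cell division (log2 fold change 2.23, adjusted p = 0.0196 by edgeR per the authors' deposited table, 0.69 log2 CPM). NAP, described as activated by AP3 and PI, stood at 0.61 without a call (adjusted p = 0.476), and the vessel regulators VND1 (-0.01) and VND7 (-0.31) were not called per the authors' deposited table. Of the CUC genes, CUC2 rose (1.09), CUC3 fell by 0.65 on the log2 scale and CUC1 was not called (-0.27) per the authors' deposited table.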
